A study of Mus musculus with 106 samples.

Results

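Calcium sensors of vesicle release were followed across neuron types and in Huntington's disease (HD): the synaptotagmins *Syt1*, *Syt2*, *Syt4*, *Syt5*, *Syt6*, *Syt7*, *Syt9* and *Syt10*, the double C2 domain gene *Doc2b*, and *Otof*, which encodes otoferlin. They were chosen by name, with earlier results of these data known. They were matched by Ensembl identifier, 10 of the 55401 genes of the count table. All 10 are protein-coding and passed the filter on low counts, a mean count over 10, in every comparison. Synaptotagmins are vesicle proteins whose C2 domains bind calcium and membrane lipid, so that calcium entering a nerve terminal triggers fusion of the vesicle with the plasma membrane. Fast sensors drive release locked to the spike, while sensors of higher calcium affinity act in delayed and spontaneous release and in the refilling of vesicle pools. Neuron types differ in the paralogs they use, and *Syt2* is known for fast-firing inhibitory neurons and for synapses of the hindbrain.

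Tagged ribosomes were immunoprecipitated from brain tissue with the RiboTag method, in which Cre recombinase switches on an HA tag on the ribosomal protein Rpl22, and the RNA of these IPs was sequenced beside total RNA of the tissue. HD mice carried Hdh Q7/Q200, a knock-in of an expanded CAG repeat beside a normal allele, and control mice carried Hdh Q7/Q7. In the vGluT2-IRES-Cre, Gad2-IRES-Cre and PV-IRES-Cre lines, mice of both genotypes were heterozygous for the RiboTag allele and for 1 Cre driver. They were on the 129S4 background and about 9 months old. The age, driver and breeding of the SST mice are not described in the sources used here. The 106 libraries, 67 of IPs and 39 of total RNA, came from 45 mice and fell into 24 groups by genotype, line, region and preparation.

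Depth is given as estimated counts per library on mouse genes. In the cerebellum, vGluT2+ IPs held 34229855 to 40085593 in 5 control and 30077290 to 44073911 in 6 HD libraries, and total RNA of this line 35858940 to 46262978 in 4 control and 39429254 to 54734074 in 4 HD libraries. Cerebellar Gad2+ IPs held 28961144 to 40661320 in 6 control and 26873252 to 93692499 in 6 HD libraries, and total RNA 30447332 to 32070248 in 3 control and 27239383 to 31130048 in 3 HD libraries. The cerebrum, taken without the olfactory bulb, was sequenced to a similar depth. Its vGluT2+ IPs held 29903359 to 68022491 in 6 control and 33195164 to 60611444 in 6 HD libraries, and total RNA 28504318 to 49987768 in 3 control and 30392661 to 36711694 in 3 HD libraries. Cerebral Gad2+ IPs held 25849571 to 42528280 in 6 control and 24294217 to 45434032 in 6 HD libraries, and total RNA 34250550 to 39831602 in 3 control and 31270333 to 52197488 in 3 HD libraries. The PV and SST lines were used in the cerebrum only. PV+ IPs held 23256772 to 47869606 in 6 control and 32941857 to 107753586 in 5 HD libraries, and total RNA 32421756 to 47574064 in 3 control and 21905221 to 38792351 in 3 HD libraries. SST+ IPs held 28527927 to 40913897 in 5 control and 30868911 to 37196196 in 4 HD libraries, and total RNA 24279938 to 42697273 in 4 control and 33020896 to 62160033 in 3 HD libraries.

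The groups are limited as models in several ways. An IP holds RNA of every cell in which the driver was active, and cerebral IPs mix neurons of all cerebral regions. PV+ IPs were made in duplicate and pooled at clean-up. An HD library of the cerebellar Gad2+, the PV+ and the cerebral vGluT2+ IPs was re-sequenced in another run, and no control library was, and the effects of sequencing run and of genotype cannot be separated in these 3 libraries. Control SST mice carry IDs of 2 prefixes and HD SST mice of 1.

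Markers of the targeted cells were checked first, as summed CPM (counts relative to the total of the library, scaled by TMM factors over all 106 libraries). The 3 GABAergic markers (*Gad1*, *Gad2*, *Slc32a1*) summed to 2380 to 3575 CPM in control cerebellar Gad2+ IPs and 147 to 254.5 in cerebellar vGluT2+ IPs. In the cerebrum they summed to 2254 to 3022 CPM in Gad2+, 2215 to 2843 in PV+, 1057 to 1677 in SST+ and 50.6 to 119.6 in vGluT2+ IPs. The 2 glutamatergic markers stood the other way, at 1197 to 1709 CPM in cerebellar vGluT2+ and 110.2 to 179 in cerebellar Gad2+ IPs. They also reached 842.5 to 1045 CPM in PV+ and 699.5 to 996 in SST+ IPs, well above the 129 to 423 of cerebral Gad2+ IPs. *Pvalb* lay at 449.8 to 724 CPM in PV+ IPs against 104 to 182 in SST+ IPs, and *Sst* at 809 to 1503 CPM in SST+ IPs against 67.7 to 137 in PV+ IPs. Granule cell markers (4 genes) summed to 3807 to 5284 CPM in cerebellar vGluT2+ IPs and 394 to 941 in cerebellar Gad2+ IPs, while Purkinje cell markers (4 genes) summed to 264 to 469 and to 7451 to 12650 CPM. Against total RNA, all 7 astrocyte and all 8 oligodendrocyte markers were called lower in cerebellar vGluT2+, cerebellar Gad2+, cerebral Gad2+ and cerebral vGluT2+ IPs, where 56.7%, 57.1%, 62.6% and 64.0% of all genes were called in either direction. In PV+ IPs 5 of 7 astrocyte and 6 of 8 oligodendrocyte markers were called lower, and in SST+ IPs 5 and 6 were called lower and 1 of each list higher, where 69.2% and 61.9% of all genes were called. Oligodendrocyte markers summed to 2760 to 4760 CPM in SST+ IPs, against 1610 to 2614 in PV+ IPs and 5198 to 6384 in total RNA of the SST line. No listed marker was without counts in any group.

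The order of the sensors by level differed between cell types. Levels of different genes are compared per length, as median CPM per kb of exon, in control IPs. In cerebellar Gad2+ IPs *Syt2* led at 122 CPM per kb, above *Syt7* (84.3), *Doc2b* (72.2) and *Syt4* (66.7), whose ranges overlapped between neighbours, and *Syt1* (32.9) and *Syt9* (13.4) followed. *Syt5*, *Otof*, *Syt6* and *Syt10* lay at 1.23, 0.937, 0.830 and 0.324 CPM per kb in these IPs, each overlapping the next. In cerebellar vGluT2+ IPs *Syt4* led at 219 CPM per kb, above *Syt1* (160.4) and *Syt2* (152), which overlapped, followed by *Syt9* (32.6) and *Syt7* (29.0), which also overlapped. *Doc2b* (12.3), *Syt5* (4.14), *Syt6* (2.55) and *Otof* (1.81) overlapped from neighbour to neighbour on this scale, and *Syt10* was lowest at 0.333. With the length of the longest transcript in place of merged exons, *Syt1* stood above *Syt4* in these IPs.

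In the cerebrum *Syt1* led in vGluT2+, Gad2+ and SST+ IPs. In cerebral vGluT2+ IPs the order per kb was *Syt1* (261), *Syt5* (104) and *Syt4* (83.1), of which the last pair overlapped, then *Syt7* (42.1), *Syt2* (15.8), *Doc2b* (10.3) and *Syt9* (8.40), of which again the last pair overlapped, and *Syt6* (3.27), *Otof* (1.30) and *Syt10* (1.23). In cerebral Gad2+ IPs *Syt1* (177) overlapped *Syt5* (90.3), and *Syt4* (61.5) overlapped *Syt2* (53.2), with *Syt7* (28.3), *Doc2b* (18.8), *Syt6* (14.6), *Syt9* (4.34), *Otof* (2.19) and *Syt10* (1.196 CPM per kb) below them. *Doc2b* overlapped *Syt6* there and fell behind it by the longest transcript, *Syt9* overlapped *Syt6* in PV+ IPs, and *Otof* overlapped *Syt10* in all 4 cerebral cell types. The order of *Syt1* and *Syt2* in PV+ IPs depended on the length used. By merged exons *Syt2* (119.8) and *Syt1* (111) overlapped there, while by the longest transcript *Syt1* (191) stood above *Syt2* (133), and by merged exons *Syt4* (45.4) and *Syt7* (44.3) overlapped, and *Syt5* (26.7), *Doc2b* (6.55), *Syt9* (3.40), *Syt6* (3.15), *Otof* (0.758) and *Syt10* (0.312 CPM per kb) followed. In SST+ IPs *Syt1* (151) stood clear of *Syt4* (53.4), *Syt5* (52.5), *Syt7* (40.1) and *Syt2* (30.8), which overlapped from neighbour to neighbour, and *Doc2b* (10.7), *Syt6* (5.94), *Syt9* (4.82), *Otof* (1.01) and *Syt10* (0.664 CPM per kb) were lower.

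**Figure D1:**
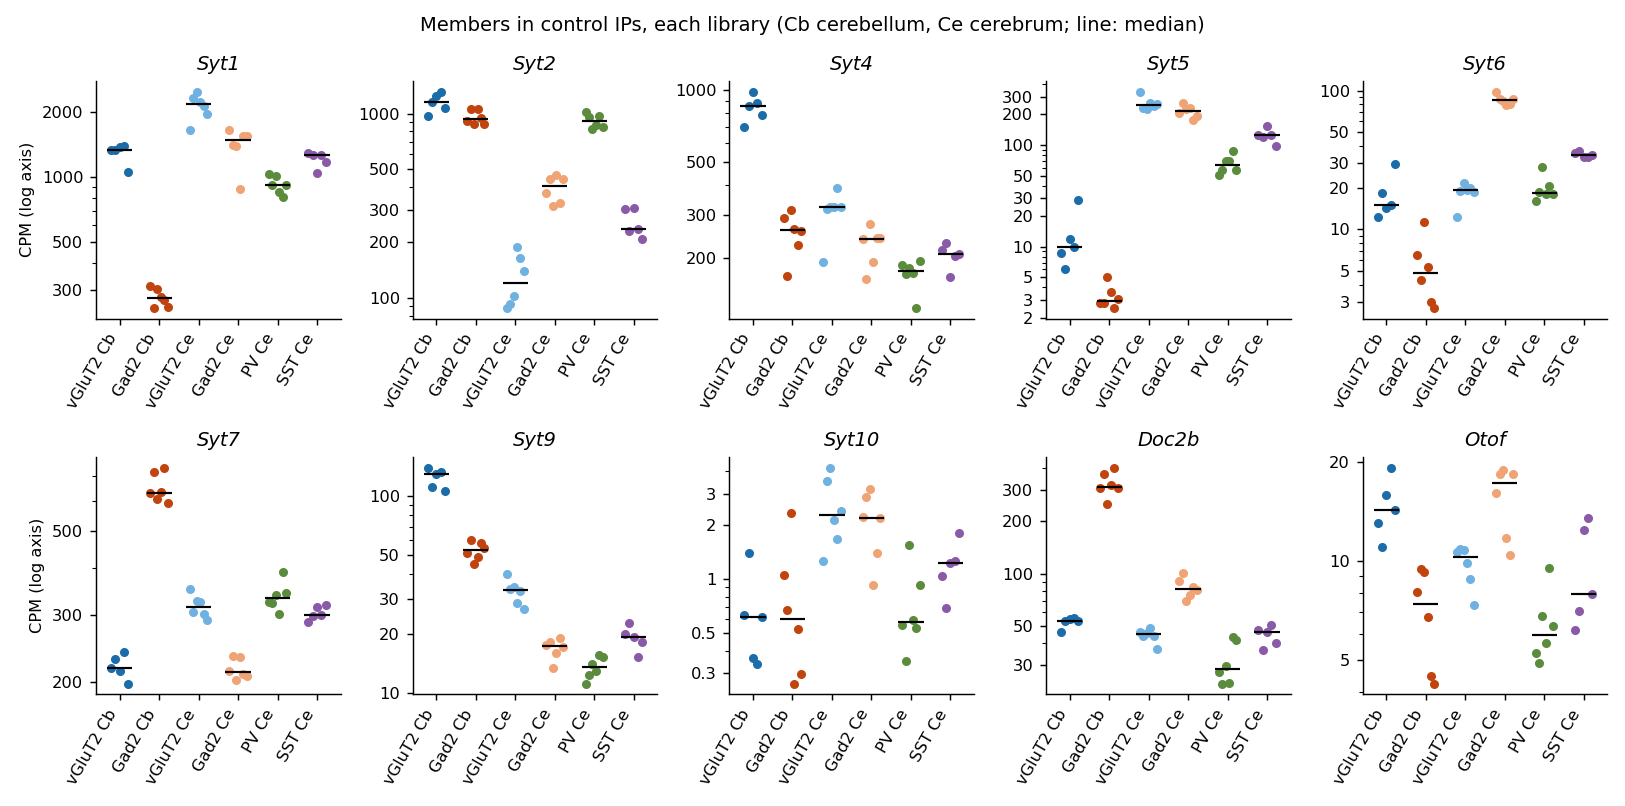
Level of each calcium sensor in every control IP library, in CPM on a log axis, by line and region (Cb, cerebellum; Ce, cerebrum). Points are libraries and lines are medians; *Syt2* is high in both cerebellar cell types and in PV+ IPs, and *Syt7* and *Doc2b* are highest in cerebellar Gad2+ IPs.

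The fast sensors *Syt1*, *Syt2* and *Syt9* differed between cell types, with *Syt1* lowest in cerebellar Gad2+ and *Syt2* lowest in cerebral vGluT2+ IPs, while cerebellar vGluT2+ IPs had high levels of both. *Syt1*, the main fast sensor of forebrain synapses, ran from 1645 to 2480 CPM (median 2175) in cerebral vGluT2+, from 879.9 to 1645 (1479) in cerebral Gad2+, from 812 to 1034 (922.5) in PV+ and from 249 to 314 (275) in cerebellar Gad2+ IPs. Single libraries held 1337, 1331, 1375, 1397 and 1059 CPM of *Syt1* in cerebellar vGluT2+ IPs and 1264, 1292, 1040, 1262 and 1171 in SST+ IPs. Cerebellar Gad2+ IPs were thus lower than every other group in *Syt1*, and PV+ IPs lay below all others but overlapped cerebral Gad2+ IPs, whose replicate 6 held 879.9. The ranges of the other groups overlapped between neighbours. *Syt2*, a fast sensor close to *Syt1*, ran from 878 to 1063 CPM (929.8) in cerebellar Gad2+, from 819 to 1018 (915) in PV+, from 316 to 461 (407) in cerebral Gad2+ and from 88.1 to 189.7 (121) in cerebral vGluT2+ IPs. It lay at 967, 1162, 1242, 1312 and 1076 CPM in cerebellar vGluT2+ IPs and at 229.9, 304, 308, 235 and 209 in SST+ IPs. The 3 groups high in *Syt2* overlapped, and the 3 low groups were apart from them and from each other. *Syt9*, a fast sensor of limbic and striatal neurons, was a cerebellar gene in these IPs, at 140.3, 112, 129.9, 133 and 106 CPM in vGluT2+ and 45.3 to 59.8 (53.2) in Gad2+ IPs. Cerebral vGluT2+ IPs held 26.7 to 40.2 CPM of *Syt9* (33.4), and SST+ (15.2 to 22.6), cerebral Gad2+ (13.4 to 19.1) and PV+ IPs (11.1 to 15.6) overlapped below them.

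*Syt7* and *Doc2b*, sensors of high calcium affinity that act in delayed and spontaneous release, were both highest in cerebellar Gad2+ IPs. *Syt7* ran there from 594 to 735 CPM (631), from 303 to 389 (332) in PV+, from 291 to 351 (315) in cerebral vGluT2+ and from 201 to 233 (212) in cerebral Gad2+ IPs. SST+ IPs (286.6 to 318.9 CPM) overlapped the PV+ and cerebral vGluT2+ IPs in *Syt7*, and cerebellar vGluT2+ IPs (198 to 239.8) overlapped the cerebral Gad2+ IPs. *Doc2b* ran from 252 to 405 CPM (315) in cerebellar Gad2+ and from 69.7 to 101 (81.9) in cerebral Gad2+ IPs, apart from each other and from all other groups. The others overlapped between neighbours, at 46.6 to 56.1 CPM in cerebellar vGluT2+, 36.7 to 50.8 in SST+, 37.1 to 49.0 in cerebral vGluT2+ and 23.5 to 43.4 in PV+ IPs.

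*Syt4*, which binds no calcium through its first C2 domain and acts in peptide and neurotrophin vesicles, was highest in cerebellar vGluT2+ IPs, at 702, 853, 980.0, 881.5 and 784 CPM. The other groups overlapped below it, from cerebral vGluT2+ (193 to 389 CPM, median 324) through cerebellar Gad2+ (168 to 317), cerebral Gad2+ (163 to 276) and SST+ (166 to 231) to PV+ IPs (124 to 194). *Syt5* was a cerebral gene, at 224 to 334 CPM (248) in vGluT2+ and 175 to 260.3 (215) in Gad2+ IPs, which overlapped. SST+ (98.0 to 154) and PV+ IPs (50.6 to 86.6 CPM) stood apart below them in *Syt5*, then cerebellar vGluT2+ (6.08 to 28.5) and cerebellar Gad2+ IPs (2.51 to 5.00). Cerebellar *Syt5* counts were therefore few, and its values there are the less precise.

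*Syt6* and *Syt10* belong to the group of synaptotagmins that pair through disulfide bonds. *Syt6* marked cerebral Gad2+ IPs, at 78.7 to 98.0 CPM (85.2), and SST+ IPs at 36.8, 35.4, 33.1, 33.2 and 34.6. Cerebral vGluT2+ (12.4 to 21.7), PV+ (16.1 to 28.0) and cerebellar vGluT2+ IPs (12.3 to 29.8 CPM) overlapped below, and cerebellar Gad2+ IPs were lowest in *Syt6* (2.72 to 11.2). *Syt10*, an activity-regulated sensor known from secretion in the olfactory bulb, was near the limit of detection in IPs. Its highest library held 4.19 CPM (cerebral vGluT2+) and neighbouring groups overlapped throughout, down to PV+ IPs at 0.351 to 1.54, while control total RNA of the cerebellum held 3.97 to 6.34 CPM.

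*Otof*, the ferlin that serves as release sensor in inner hair cells, was low in all groups. It ran from 10.4 to 18.9 CPM (17.3) in cerebral Gad2+ IPs and lay at 13.0, 11.1, 15.9, 19.2 and 14.3 in cerebellar vGluT2+ IPs, which overlapped. The others had lower medians and overlapped between neighbours, and cerebral vGluT2+ and SST+ IPs reached into the range of the first pair, at 7.35 to 10.9 CPM in cerebral vGluT2+, 6.18 to 13.5 in SST+, 4.26 to 9.44 in cerebellar Gad2+ and 4.91 to 9.54 in PV+ IPs.

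Over the 34 control IP libraries and 14571 genes, the 3 genes whose log2(CPM + 1) was most like a sensor were taken for all sensors but *Syt10*, by Pearson's r, which here mostly tracks line and region. *Syt2* was most like *Ank1* (r = 0.965), *Bag3* (0.953) and *Tmem132c* (0.949). *Syt1* was most like *Fam13c* (0.976), *Dclk1* (0.966) and *Ncald* (0.962). *Syt9* was most like *Cbfa2t3* (0.966), *Dusp5* (0.957) and *Lnx2* (0.954). The high-affinity sensors had like genes of their own. *Syt7* was most like *Mgat5* (0.971), *Shank2* (0.960) and *Spsb1* (0.958), and *Doc2b* most like *Tmem200b* (0.969), *Lingo3* (0.958) and *Kit* (0.954). For *Syt4* they were *Usp1* (0.961), *Gopc* (0.952) and *Etv1* (0.952), and for *Syt5* they were *Fibcd1* (0.989), *Ctxn1* (0.983) and *Sstr2* (0.981). Less abundant sensors had lower r, namely *Syt6* with *Rem2* (0.940), *Strn* (0.927) and *Gpr155* (0.920), and *Otof* with *Pnmal2* (0.870), *Arhgap10* (0.823) and *Gigyf1* (0.820). Libraries of a group share tissue and preparation, so these r describe differences between few groups.

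Control IPs were compared with control total RNA of the same region to see which sensors tagged ribosomes hold above the tissue. In the cerebellum the 2 cell types stood on opposite sides of total RNA for several sensors. *Syt1* and *Syt9* were higher in vGluT2+ and lower in Gad2+ IPs, while *Syt7* and *Doc2b* were lower in vGluT2+ and higher in Gad2+ IPs. *Syt2* was higher in both and *Syt10* lower in both. In total RNA (7 libraries) *Syt1* ran from 427 to 587 CPM, *Syt4* from 233 to 408.5, *Syt7* from 294 to 428 and *Doc2b* from 112 to 155. By the quasi-likelihood test of edgeR, calling genes up to an adjusted p of 0.05 (Benjamini-Hochberg), 8 of 10 sensors were called in vGluT2+ IPs (5 higher, 3 lower) where 56.7% of all genes were called. The log2 fold changes had a median of 0.62 over the sensors and -0.01 over all 14317 genes tested. *Syt1* was higher by 1.199 ± 0.104 (SE, adjusted p = 1.63e-07) in 5 of 5 IPs and *Doc2b* lower by a log2 fold change of -1.45 ± 0.0986 (1.3e-08) in 5 of 5. *Syt4* (1.22), *Syt2* (0.66), *Syt9* (0.59) and *Otof* (0.83) were also called higher and *Syt7* (-0.86) and *Syt10* (-3.09) lower, each with no overlap. *Syt5* (0.91, adjusted p = 0.0643) and *Syt6* (0.56, 0.0701) were not called, but *Syt5* was without control replicate 2 (0.026) and *Syt6* without replicate 1 (0.0417) or 4 (0.0488), and DESeq2 called all 10.

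In Gad2+ IPs of the cerebellum 9 of 10 sensors were called (3 higher, 6 lower) where 57.1% of genes were, and the median was -0.49 over the sensors and -0.02 over all genes. *Doc2b* was higher by 1.26 ± 0.109 (adjusted p = 8.67e-08) and *Syt7* by 0.78 ± 0.0975 (4.53e-06), each in 6 of 6 IPs without overlap, and *Syt2* by 0.47. *Syt1* (-0.94), *Syt5* (-1.01), *Syt6* (-1.06), *Syt9* (-0.56) and *Syt10* (-2.69) were lower, and *Otof* (-0.14) was not called. *Syt4* (-0.42, adjusted p = 0.0416, 2 of 6 IPs below all total RNA) was not called without IP replicate 1 (0.0758), 2 (0.0657), 4 (0.0937) or 6 (0.0633). With the mouse as a block, in 3 mice, *Syt2*, *Syt4*, *Syt5* and *Syt6* were not called, and *Syt4* came to 0.02. With total RNA of the same line *Syt4* and *Syt6* were not called, and in HD mice *Syt2* was not and *Syt4* came to 0.12. Without TMM scaling the median of all genes in this comparison moved by -0.12.

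In the cerebrum *Syt2* was highest above total RNA in PV+ IPs, *Syt6* in Gad2+ IPs, and *Syt1* and *Syt4* in vGluT2+ IPs. Control total RNA (13 libraries) ran from 168 to 265.5 CPM for *Syt2*, from 17.0 to 27.6 for *Syt6* and from 634 to 1194 for *Syt1*. In Gad2+ IPs 9 of 10 sensors were called (7 higher, 2 lower) where 62.6% of genes were, with a median of 0.66 over the sensors and 0.02 over all genes. *Syt6* was higher by 1.80 ± 0.114 (adjusted p = 1.19e-10) in 6 of 6 IPs, beside *Syt2* (0.87), *Doc2b* (0.71), *Syt4* (0.69), *Syt1* (0.63), *Otof* (0.58) and *Syt10* (0.86), while *Syt7* (-0.53) and *Syt9* (-0.51) were lower and *Syt5* (-0.03) was not called. *Syt10* (adjusted p = 0.0237, 2 of 6 IPs above all total RNA) was not called without IP replicate 4 (0.0607) or 5 (0.0704). With total RNA of the same line alone, 3 libraries in place of 13, *Syt1* (0.53), *Syt4* (0.66), *Syt9* (-0.39), *Syt10* (0.42) and *Otof* (0.49) were not called. With the mouse as a block, in 3 mice, *Syt1* (0.34), *Syt4* (0.55), *Syt7* (-0.46), *Syt9* (-0.35), *Syt10* (0.15) and *Otof* (0.23) were not. In HD mice *Syt4* (0.19) and *Syt7* (-0.25) were not called and *Syt1* (-0.02) and *Syt10* (-0.23) lay on the other side.

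In PV+ IPs 5 of 10 sensors were called (1 higher, 4 lower) where 69.2% of genes were, with a median of -0.35 over the sensors and -0.01 over all genes. *Syt2* alone was called higher, by 2.20 ± 0.0776 (adjusted p = 2.08e-14) in 6 of 6 IPs. *Syt5* (-1.64) and *Syt9* (-0.72) were lower without overlap, and *Doc2b* (-0.59) and *Otof* (-0.60) with overlap. *Syt1* (0.14), *Syt4* (0.40), *Syt6* (-0.19), *Syt7* (0.22, adjusted p = 0.0552) and *Syt10* (-0.50) were not called. *Syt6* and *Syt10* were called without IP replicate 1 (adjusted p = 0.035 and 0.0452) and *Syt7* without replicate 5 (0.0498). With the mouse as a block *Otof* was not called and *Syt7* was, and in HD mice *Doc2b* (-0.27) and *Otof* (-0.31) were not.

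SST+ IPs had 5 of 10 sensors called (4 higher, 1 lower) where 61.9% of genes were, with a median of 0.13 over the sensors and -0.02 over all genes. *Syt6* was higher by 0.62 ± 0.122 (adjusted p = 0.000289) in 5 of 5 IPs without overlap, beside *Syt4* (0.67), *Syt1* (0.53) and *Syt2* (0.38), and *Syt5* was lower (-0.69). The other 5 were not called, of which *Syt9* (-0.22, adjusted p = 0.0931) was called without IP replicate 1 (0.0491). Without TMM scaling the median of all genes moved here by 0.13, and *Syt2* was not called with the mouse as a block or with total RNA of the same line. In HD mice *Syt1* (0.26) and *Syt4* (0.55) were not called.

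Cerebral vGluT2+ IPs had 6 of 10 sensors called (4 higher, 2 lower) where 64.0% of genes were, with a median of 0.11 over the sensors and 0.03 over all genes. *Syt1* was higher by 1.21 ± 0.133 (adjusted p = 1.2e-07) in 6 of 6 IPs without overlap, and *Syt4* by 1.14 in 5 of 6. *Syt10* (1.13) and *Syt9* (0.43) were higher, *Syt2* (-0.75) and *Syt6* (-0.42) lower, and *Syt5* (0.22), *Syt7* (0.00), *Doc2b* (-0.22) and *Otof* (-0.12) were not called. With the mouse as a block 2 were called, *Syt2*, *Syt6*, *Syt9* and *Syt10* being lost, and in HD mice *Syt2* (-0.18) and *Syt10* (0.15) were not called. In all 6 of these comparisons being called was common to most genes, and the shares of sensors called in PV+, SST+ and cerebral vGluT2+ IPs were below those of all genes.

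The cell types were then compared with each other in control IPs, from different mice. In the cerebellum vGluT2+ IPs were higher than Gad2+ IPs in *Syt1*, *Syt4*, *Syt5*, *Syt6*, *Syt9* and *Otof* and lower in *Syt7* and *Doc2b*. That was 8 of 10 sensors called (6 higher, 2 lower) where 56.4% of genes were, with a median of 1.11 over the sensors and 0.02 over all genes. The largest differences were *Doc2b* at -2.66 ± 0.131 (adjusted p = 5.82e-10, lower in 5 of 5 vGluT2+ IPs) and *Syt1* at 2.20 ± 0.11 (6.41e-10, higher in 5 of 5). *Syt5* (1.97), *Syt4* (1.70), *Syt6* (1.68), *Syt9* (1.203) and *Otof* (1.03) were higher and *Syt7* was lower (-1.60). *Syt2* (0.24, adjusted p = 0.0665) and *Syt10* (-0.36) were not called, but *Syt2* was without Gad2+ replicate 4 (0.0374) or vGluT2+ replicate 1 (0.033).

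In the cerebrum vGluT2+ IPs were lower than Gad2+ IPs in *Syt2*, *Syt6*, *Doc2b* and *Otof* and higher in *Syt1*, *Syt4*, *Syt7* and *Syt9*. Here 8 of 10 sensors were called (4 higher, 4 lower) where 29.8% of genes were, with a median of 0.24 over the sensors and -0.01 over all genes. *Syt6* differed by -2.23 ± 0.123 (adjusted p = 2.2e-09) and *Syt2* by -1.62 ± 0.19 (8e-06), each in 6 of 6 IPs. *Doc2b* (-0.93), *Otof* (-0.71), *Syt9* (0.95), *Syt1* (0.58) and *Syt7* (0.53) were called, and *Syt5* (0.25) and *Syt10* (0.24) were not. *Syt4* (0.45, adjusted p = 0.0422, higher in 5 of 6) was not called without Gad2+ replicate 1 (0.0532), 2 (0.0539), 3 (0.0628), 4 (0.0862) or 6 (0.0841), nor without vGluT2+ replicate 2 (0.0704), 3 (0.0702), 4 (0.0774), 5 (0.101) or 6 (0.078). *Syt1* was not called in HD mice (0.79, 0.0576). *Doc2b* was lower in vGluT2+ than in Gad2+ IPs of both regions, whereas *Syt7* was lower in the cerebellum and higher in the cerebrum; the difference between regions in this contrast was not tested.

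PV+ IPs had more *Syt2* and less *Syt1*, *Syt5* and *Syt6* than SST+ IPs. In all 6 of 10 sensors were called (1 higher, 5 lower) where 18.2% of genes were, with a median of -0.50 over the sensors and -0.04 over all genes. *Syt2* differed by 1.83 ± 0.12 (adjusted p = 2.61e-07, higher in 6 of 6 PV+ IPs), *Syt5* by -0.95, *Syt6* by -0.80 and *Syt9* by -0.49. *Syt1* (-0.38, adjusted p = 0.0197) was not called without SST+ replicate 2 (0.0548). *Doc2b* (-0.50, adjusted p = 0.0499, lower in 4 of 6) was not called without PV+ replicate 1 (0.0886), 3 (0.122), 4 (0.112) or 5 (0.119), nor without SST+ replicate 2 (0.105), 3 (0.0695), 4 (0.109) or 6 (0.0604). In HD mice *Syt1* (-0.14), *Syt9* (-0.27) and *Doc2b* (-0.08) were not called. *Otof* (-0.56, 0.0895) was called only without PV+ replicate 6 (0.0387), and *Syt4* (-0.25), *Syt7* (0.14) and *Syt10* (-0.67) were not called.

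Between regions, *Syt2* and *Syt9* were higher in the cerebellum and *Syt1* and *Syt5* higher in the cerebrum, in Gad2+ and in vGluT2+ IPs alike and without overlap. The regions came from the same mice, but the cerebral vGluT2+ IPs included a mouse without a cerebellar IP. In Gad2+ IPs 9 of 10 sensors were called (4 higher in the cerebellum, 5 lower) where 51.1% of genes were, with a median of -0.49 over the sensors and 0.01 over all genes. *Syt5* differed by -6.05 ± 0.191 (adjusted p = 7.99e-13), *Syt6* by -3.96, *Syt1* by -2.35 and *Otof* by -1.16, and *Doc2b* (1.96), *Syt9* (1.64), *Syt7* (1.58 ± 0.0874, 3.63e-10) and *Syt2* (1.27) were higher in the cerebellum, each in 6 of 6 IPs. *Syt4* (0.17) was not called. *Syt10* (-1.32, adjusted p = 0.0432, lower in 4 of 6) was not called without cerebellar replicate 1 (0.0793), 2 (0.0809), 3 (0.0569), 4 (0.0778) or 6 (0.0868), nor without cerebral replicate 2 (0.0676), 3 (0.0685), 4 (0.0834) or 5 (0.0749), and in HD mice it was not called and neither was *Otof* (-0.37). In vGluT2+ IPs 8 of 10 sensors were called (4 higher, 4 lower) where 63.2% of genes were, with a median of 0.05 over the sensors and -0.00 over all genes. *Syt2* was higher in the cerebellum by 3.10 ± 0.203 (adjusted p = 1.48e-08), *Syt9* by 1.86, *Syt4* by 1.37 and *Otof* by 0.54, and *Syt5* (-4.34 ± 0.367, 1.79e-07), *Syt10* (-1.97), *Syt1* (-0.77) and *Syt7* (-0.58) were lower. *Syt6* (-0.09) and *Doc2b* (0.20, 0.0923) were not called, but *Doc2b* was without cerebellar replicate 1 (0.043). With the mouse as a block 9 and 8 sensors were called.

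HD and control IPs were compared within each cell type to see where the sensors respond to mutant huntingtin. In cerebellar vGluT2+ IPs of HD mice *Syt7* and *Doc2b* fell and *Otof* rose. *Syt7* (ENSMUSG00000024743.16, chromosome 19, 10389090 to 10453180, plus strand, GRCm38) lay at 217, 229.9, 213, 239.8 and 198 CPM in control and at 147, 140.5, 162, 153, 170.3 and 120.5 in HD IPs. *Doc2b* (ENSMUSG00000020848.7, chromosome 11, 75768966 to 75796049, minus strand) lay at 46.6, 53.6, 54.7, 56.1 and 53.3 CPM in control and at 27.7, 38.5, 44.6, 31.2, 32.3 and 37.4 in HD IPs. *Otof* (ENSMUSG00000062372.13, chromosome 5, 30367062 to 30461932, minus strand) lay at 13.0, 11.1, 15.9, 19.2 and 14.3 CPM in control and at 28.1, 18.9, 26.2, 36.9, 32.4 and 21.3 in HD IPs. All 6 HD IPs were below every control in *Syt7* and *Doc2b*, and in *Otof* 5 of 6 were above every control while HD replicate 2 lay just under the highest one.

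These were 3 of 10 sensors called (1 higher, 2 lower) where 2.11% of genes were, 285 of 13487. The median log2 fold change was -0.20 over the sensors and -0.01 over all genes. The authors had reported *Syt7*, *Doc2b* and *Otof* as differentially expressed in these neurons from the same libraries. The sensors were chosen with earlier results known, so their share called is not independent of that report. With 1 library left out 149 to 255 genes were called, and DESeq2 called 665 genes and 3 sensors. *Syt7* differed by -0.53 ± 0.0964 (adjusted p = 0.00988), *Doc2b* by -0.55 ± 0.122 (0.0327) and *Otof* by 0.92 ± 0.183 (0.0181). *Syt4* lay at 702 to 980.0 CPM in control and 512 to 779 (median 635) in HD IPs and was not called (-0.37, 0.163), nor were *Syt1* (-0.04), *Syt2* (0.07), *Syt5* (0.03), *Syt6* (-0.39), *Syt9* (0.07) and *Syt10* (-1.21). The *Syt7* call was kept in 11 of 11 fits that left out 1 library. *Otof* was not called without control replicate 1 (adjusted p = 0.0611) or 2 (0.0501). *Doc2b* was not called without control replicate 2 (0.0726), 3 (0.0801), 4 (0.0834) or 5 (0.0721), nor without HD replicate 1 (0.0723), 4 (0.0557) or 5 (0.077), nor with the log2 CPM of *Xist* as a covariate (0.0885).

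Other genes of release and of cell identity moved in the same IPs. Of all genes 2.11% were called, with a median of -0.01. Of 38 release machinery genes tested 4 were called, all lower in HD IPs, with a list median of 0.02: the SNARE gene *Snap25* (-0.71), the vesicle SNARE *Vamp1* (-0.56) and the complexins *Cplx2* (-0.42) and *Cplx3* (-2.69), which clamp and promote fusion. Of these, the authors had reported *Snap25*, *Cplx2* and *Cplx3* as lower in these neurons from the same libraries. The list was chosen with earlier results known, so its share called is not independent of that report. *Snap25* ran from 10040 to 13100 CPM in control and from 5406 to 8416 in HD IPs. Of 17 related C2 domain genes (other synaptotagmins, synaptotagmin-like genes, ferlins and kin) 0 were called by edgeR, with a median of -0.10. Granule cell markers, of which *Zic1* was most abundant, summed to 4774, 4987, 5034, 5284 and 3807 CPM in control and to 3775, 3297, 4292, 2467, 3621 and 2179 in HD IPs. Of these 4 markers *Neurod1* was called (-0.87, adjusted p = 0.00914). Of the 7 genes of the striatal list, which marks no striatal cells in cerebellar IPs, *Ppp1r1b* was called (-0.62, 0.018). The authors describe this gene in Purkinje neurons as well as in the striatum. The list summed to 137 to 200.4 CPM in control and 105 to 141.5 in HD IPs. None of the other 10 marker lists had a gene called by edgeR. The part of these markers in the fall of *Syt7* and *Doc2b* was not tested, and in bulk samples fewer cells of a type and less RNA per cell cannot be told apart.

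**Figure D2:**
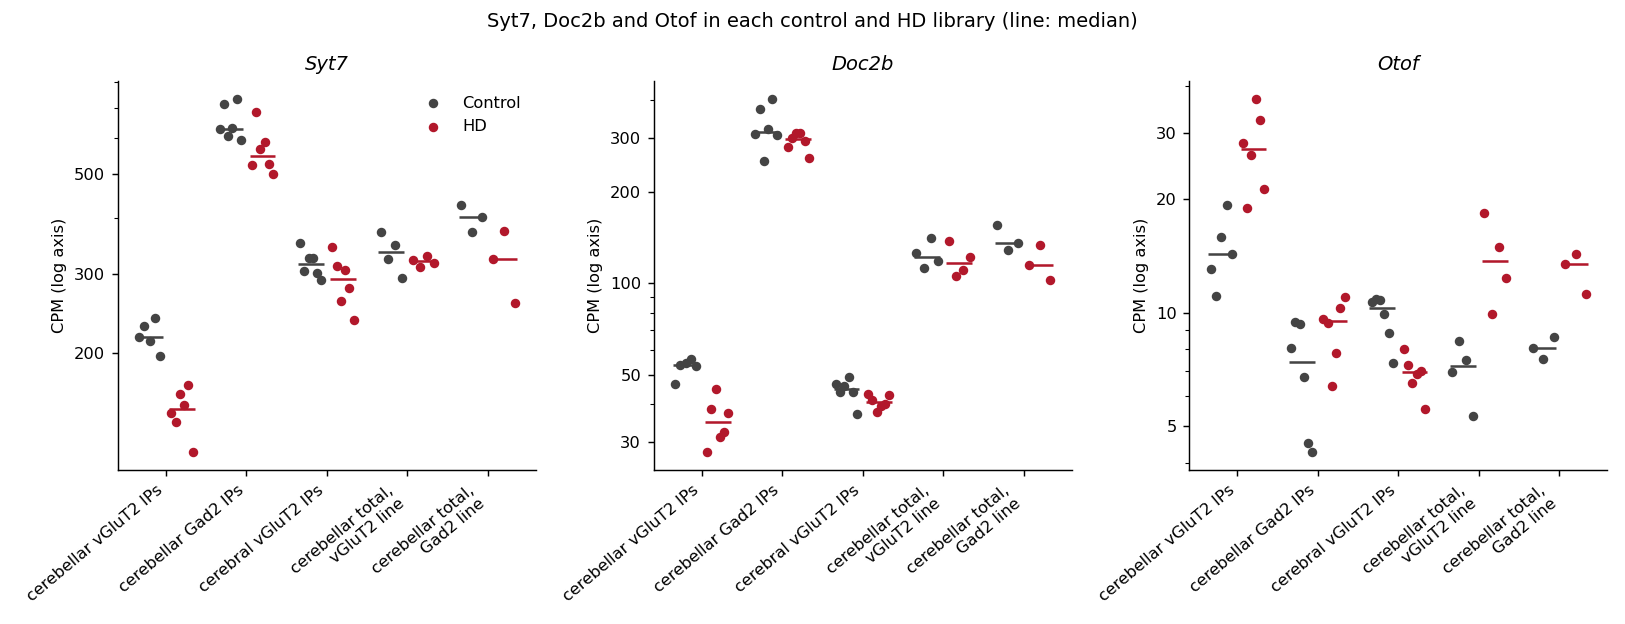
Level of *Syt7*, *Doc2b* and *Otof* in single libraries, in CPM on a log axis, for control (grey) and HD (red) mice in IPs of the cerebellum and cerebrum and in cerebellar total RNA of both lines. Lines are medians; HD libraries lie lower in *Syt7* and *Doc2b* and higher in *Otof* in cerebellar vGluT2+ IPs.

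In cerebellar Gad2+ IPs, where *Syt7* and *Doc2b* are most abundant, HD and control libraries overlapped in every sensor, but 5 of 6 HD IPs lay below every control in *Syt7*. *Syt7* ran from 594 to 735 CPM (631) in control and from 501 to 688 (548) in HD IPs, *Doc2b* from 252 to 405 (315) and from 259 to 313 (298), and *Otof* from 4.26 to 9.44 (7.41) and from 6.38 to 11 (9.51). By edgeR 0 of 10 sensors were called where 0.0142% of genes were, 2 of 14098, with 324 genes at an unadjusted p under 0.05. DESeq2 called 22 genes and 0 sensors. The log2 fold changes were -0.23 ± 0.0988 for *Syt7*, -0.18 ± 0.111 for *Doc2b* and 0.34 ± 0.226 for *Otof*, each with an adjusted p of 1, and the median was -0.02 over the sensors and 0.00 over all genes. The difference between the HD effects of the 2 cerebellar cell types was tested as an interaction, in which 0 of 10 sensors were called where 0.107% of genes were, with 989 genes at an unadjusted p under 0.05. DESeq2 called 73 genes and 0 sensors in it. The differences were -0.34 ± 0.136 for *Syt7* (adjusted p = 0.631), -0.40 ± 0.159 for *Doc2b* (0.616) and 0.56 ± 0.301 for *Otof* (0.754), vGluT2+ minus Gad2+, with a median of -0.23 over the sensors and -0.04 over all genes. A response of vGluT2+ neurons different from that of Gad2+ neurons was thus not detected for these 3 sensors.

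Between regions, the HD effect on *Otof* differed in vGluT2+ IPs. *Otof* ran from 7.35 to 10.9 CPM (10.3) in control and from 5.55 to 7.99 (6.94) in HD IPs of the cerebrum, the direction opposite to that of the cerebellum, with overlap. Its cerebral log2 fold change was -0.50 ± 0.137 (unadjusted p = 0.00247 and adjusted p = 0.617 by edgeR), and the interaction, cerebellar minus cerebral, was 1.45 ± 0.225 (adjusted p = 0.0024). This was 1 of 10 sensors called where 0.323% of genes were, with a median of -0.19 over the sensors and 0.03 over all genes. The call was kept in 23 of 23 fits that left out 1 library. The regions came from the same mice, except for a control mouse without a cerebellar IP, and this interaction was fitted without the mouse as a term. *Syt7* (-0.39 ± 0.127, adjusted p = 0.325) and *Doc2b* (-0.41 ± 0.146, 0.406) were not called in it. Of 38 release genes *Cplx3* was called (-2.27, 0.00674).

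Cerebral IPs had no sensor called in any of 4 cell types. In vGluT2+ IPs 0 of 10 were called by edgeR where 0.00697% of genes were, with 1045 genes at an unadjusted p under 0.05, and DESeq2 called 25 genes and 0 sensors. *Syt1* ran there from 1645 to 2480 CPM in control and from 1100 to 1978 (1724) in HD IPs (-0.35 ± 0.139, adjusted p = 0.677). In Gad2+ IPs 0 of 10 were called where 0.0279% of genes were, with 1313 at an unadjusted p under 0.05, and DESeq2 called 75 genes and 0 sensors. *Syt1* (-0.55 ± 0.282, adjusted p = 0.537) spread widely among HD Gad2+ IPs, from 506.5 to 1417 CPM, with 3 of 6 below every control. Striatal markers, of which edgeR called 0 of 7, summed to 4571 to 6071 CPM in control and 2643 to 4568 in HD cerebral Gad2+ IPs. The list medians were -0.12 in vGluT2+ and -0.19 in Gad2+ IPs, against -0.02 and -0.01 over all genes.

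In PV+ IPs 0 of 10 sensors were called where 0.034% of genes were, with 630 at an unadjusted p under 0.05, and DESeq2 called 42 genes and 0 sensors. *Syt2* lay at 914, 971, 952, 758 and 881 CPM in HD IPs, within the control range of 819 to 1018 in all but replicate 5 (758), with a log2 fold change of -0.05 ± 0.0793. *Doc2b* lay at 21.5, 27.4, 94.0, 20.1 and 25.1 CPM, of which HD replicate 3 stood far above the others. In that library Purkinje cell markers summed to 1557 CPM, against 61.0 to 99.3 in the other HD PV+ IPs, and granule cell markers to 348 against 41.6 to 96.5; their part in its *Doc2b* level was not tested. In SST+ IPs 0 of 10 sensors were called where 0.0% of 14689 genes were, with 207 at an unadjusted p under 0.05, and DESeq2 called 2 genes and 0 sensors. *Syt2* lay at 247, 157, 258 and 227 CPM in HD SST+ IPs against 209 to 308 in controls (-0.20 ± 0.183), with overlap. The list medians were -0.06 in PV+ and -0.14 in SST+ IPs, against 0.00 and 0.01 over all genes. No release gene and no related C2 domain gene was called by edgeR in cerebellar Gad2+ or cerebral IPs.

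**Figure D3:**
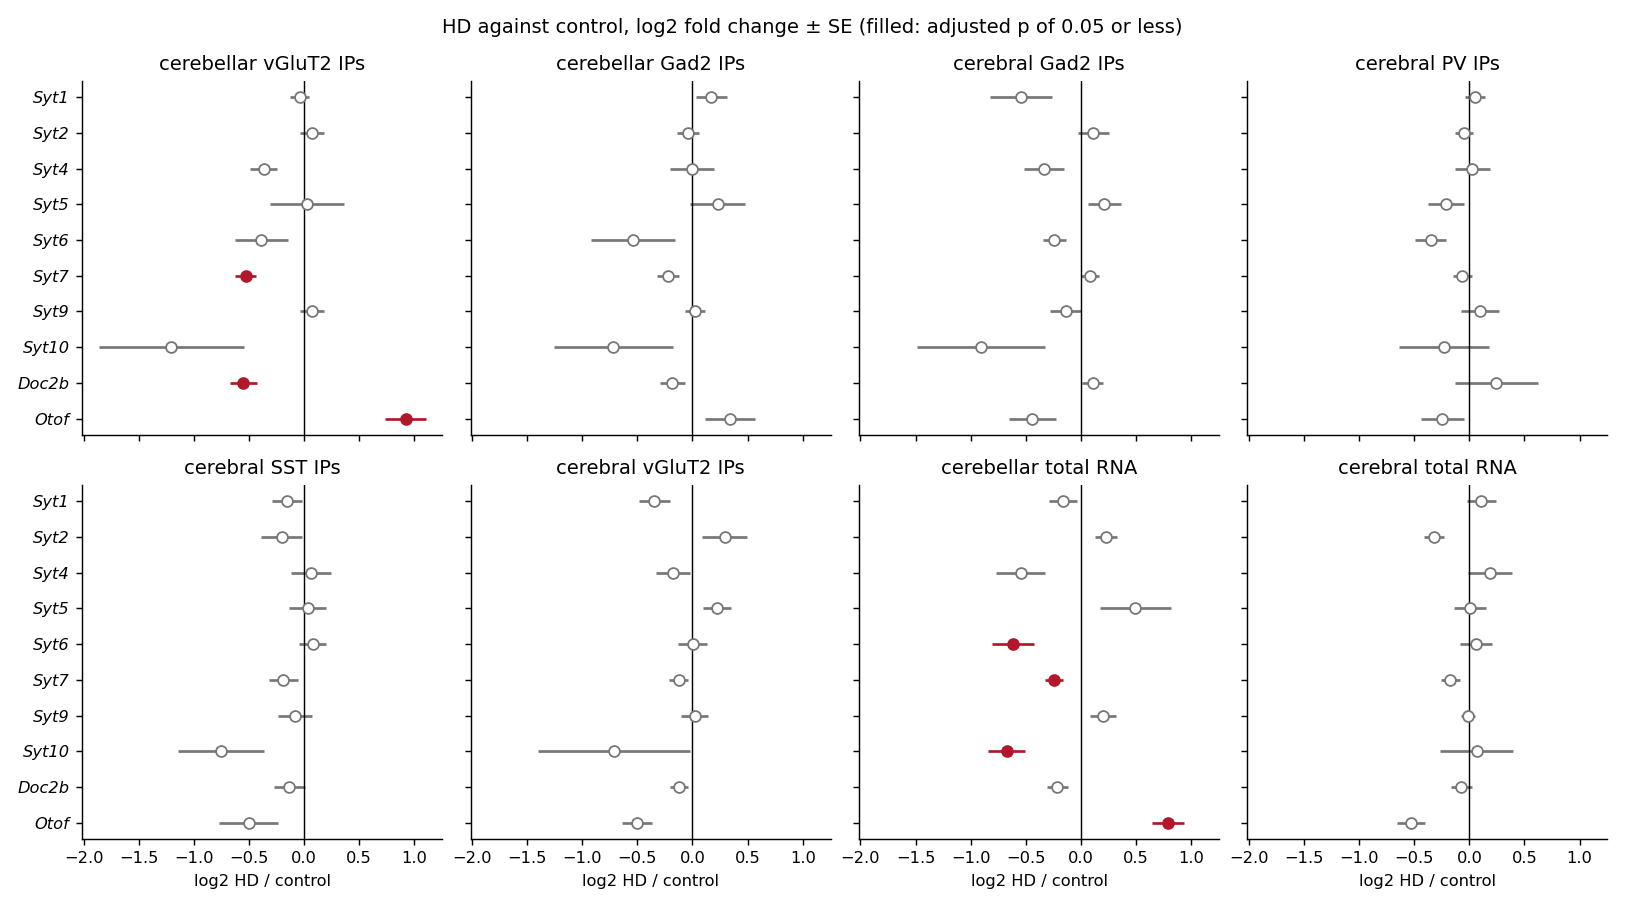
Log2 fold change of HD against control (x axis, bars are SE) for the 10 calcium sensors, by cell type and in total RNA. Filled red points passed an adjusted p of 0.05 in the edgeR test; calls lie in cerebellar vGluT2+ IPs and cerebellar total RNA.

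In total RNA of the cerebellum, tested over both lines together, *Otof* rose and *Syt10*, *Syt6* and *Syt7* fell in HD mice, among many other genes called. *Otof* lay at 8.07, 7.55 and 8.62 CPM in control and 13.5, 14.3 and 11.2 in HD libraries of the Gad2 line, and at 6.95, 8.40, 7.50 and 5.31 in control and 18.4, 9.90, 14.97 and 12.4 in HD libraries of the vGluT2 line. *Syt10* lay at 5.42, 5.76 and 3.97 against 2.92, 4.52 and 3.54 CPM in the Gad2 line and at 5.54, 5.01, 6.34 and 4.56 against 4.21, 2.39, 3.25 and 3.31 in the vGluT2 line. *Otof* did not overlap between genotypes in either line, while *Syt10* overlapped in the Gad2 line. *Syt6* lay at 7.19, 10.7 and 10.1 against 5.91, 5.89 and 9.07 CPM in the Gad2 line and at 10.6, 10.96, 9.49 and 18.3 against 7.72, 7.62, 8.71 and 7.58 in the vGluT2 line. *Syt7* lay at 428, 372 and 401 against 324, 374 and 259 CPM in the Gad2 line and at 371, 324, 348.5 and 294 against 322, 312, 329.7 and 318 in the vGluT2 line. *Syt6* overlapped in the Gad2 line and *Syt7* in both.

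With the line as a covariate 4 of 10 sensors were called (1 higher, 3 lower) where 24.5% of genes were, 3544 of 14477, with a median of -0.19 over the sensors and -0.01 over all genes. With 1 library left out the number of genes called ran from 96 to 7408, so this share is unstable. *Otof* rose by 0.79 ± 0.146 (adjusted p = 0.014, higher in 7 of 7 HD libraries), *Syt10* differed by -0.67 ± 0.168 (0.028), *Syt6* by -0.62 ± 0.19 (0.0367) and *Syt7* by -0.25 ± 0.083 (0.0451). *Otof* was kept in 14 of 14 fits that left out 1 library. *Syt10* was not called without Gad2 line control replicate 2 (0.0536), Gad2 line HD replicate 2 (0.0546), vGluT2 line control replicate 1 (0.0658), 2 (0.0649), 3 (0.0538) or 4 (0.0616), or vGluT2 line HD replicate 2 (0.065), 3 (0.0653) or 4 (0.0646). *Syt6* was kept in 3 of 14 such fits and not called without Gad2 line control replicate 2 (0.075), Gad2 line HD replicate 1 (0.0555) or 2 (0.0736), or any 1 library of the vGluT2 line (0.0539 to 0.0766). *Syt7* was kept in 2 of 14, without replicate 3 of the control or of the HD Gad2 line, and any other library left out ended its call (0.054 to 0.0939), as did library sizes taken over the genes tested (0.0511), no filter on low counts (0.0698) and all gene types (0.0585). *Syt4* (-0.55, 0.0758) was called by DESeq2 (0.0454) and without Gad2 line control replicate 1 (0.0333) or 3 (0.0418) or HD replicate 3 (0.00879), and *Syt1* (-0.16, 0.33) without Gad2 line HD replicate 3 (0.0433). *Syt2* (0.23, 0.0912), *Syt5* (0.49), *Syt9* (0.20) and *Doc2b* (-0.21, 0.089) were not called.

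The lines differed in how much was called. In the vGluT2 line alone 6 of 10 sensors were called where 51.7% of genes were. *Syt2* lay at 616, 579, 700.5 and 605 CPM in control and 828, 794, 963 and 1028 in HD libraries of this line (0.40, adjusted p = 0.0133). *Syt4* lay at 389, 347, 288 and 367 against 128, 245, 199.7 and 265 CPM (-0.86, 0.00677). Both groups were thus apart, *Syt2* upward and *Syt4* downward, and *Syt1* (-0.32), *Syt6* (-0.78), *Syt10* (-0.83) and *Otof* (0.86) were called as well. In the Gad2 line alone edgeR called 0 of 10 sensors where 0.0% of genes were called, with 316 at an unadjusted p under 0.05, and DESeq2 was not run on single lines. *Otof* came to 0.69 ± 0.177 in this line of 3 against 3 libraries. The difference of the HD effects of the lines, chosen as a test after both had been seen, called 0 of 10 sensors where 1.64% of genes were, with 4180 at an unadjusted p under 0.05. It was 0.39 ± 0.168 for *Syt2* (adjusted p = 0.146), -0.75 ± 0.407 for *Syt4* (0.226) and 0.16 ± 0.292 for *Otof* (0.726), and DESeq2 was not run for it.

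HD libraries of the vGluT2 line stood apart in more than the sensors. Their TMM factors ran from 0.892 to 0.917, against 1.03 to 1.12 in controls of the line and 1.01 to 1.07 in the Gad2 line. The 2 glutamatergic markers, mostly *Slc17a7*, summed to 1300.0, 1394, 1240.0 and 1244 CPM in them, against 662, 585, 749 and 494 in controls of the line, 909, 758 and 901 in Gad2 line controls and 877, 1105 and 612 in Gad2 line HD libraries. The 6 microglia markers, of which *Csf1r* was most abundant, summed to 146.5, 135, 146 and 134 CPM, against 85.4, 77.0, 88.8 and 85.7 in controls of the line, 92.8, 88.7 and 101 in Gad2 line controls and 102, 109.8 and 87.6 in Gad2 line HD libraries. Both lists were higher in all 4 HD libraries of the vGluT2 line than in any other. The 4 unipolar brush cell markers, mostly *Plcb4*, were lower, at 122, 109, 97.1 and 122 CPM, against 272, 285, 286 and 322 in controls of the line, 224, 229.9 and 292 in Gad2 line controls and 162, 178 and 257 in Gad2 line HD libraries. The thalamic and striatal lists are named for cells of the cerebrum, and these libraries hold cerebellum only, so they mark no such cells here. The thalamic list summed to 163.1 to 201.7 CPM in HD and 267.7 to 424.6 in control libraries of the vGluT2 line. The parvalbumin list came to 1143 to 1704 CPM in HD and 797.8 to 1103 in control libraries of this line. Thalamic and parvalbumin sums overlapped between genotypes in the Gad2 line. Purkinje cell markers differed in both lines, and oligodendrocyte and GABAergic markers in the Gad2 line. The 3 GABAergic markers summed to 750.6 to 805.0 CPM in controls and 620.8 to 708.1 in HD libraries of the Gad2 line. In the vGluT2 line they overlapped, at 722.6 to 874.8 CPM in controls and 667.8 to 767.2 in HD libraries. The 4 Purkinje cell markers summed to 2317 to 2678 CPM in controls and 2006 to 2120.0 in HD libraries of the Gad2 line, and to 2341 to 2672 and 1484 to 2161 in the vGluT2 line, lower in all 7 HD libraries than in any control. The 8 oligodendrocyte markers summed to 4099 to 4959 CPM in controls and 3178 to 3586 in HD libraries of the Gad2 line, and to 4512 to 5348 and 3729 to 5054 in the vGluT2 line, where they overlapped. Over both lines 24.5% of all genes were called by edgeR. Among markers, called were 2 of 3 GABAergic (*Gad1* -0.35, *Gad2* -1.001), 1 of 2 glutamatergic (*Slc17a7* 0.57), 0 of 4 granule cell and 1 of 4 Purkinje cell markers (*Calb1* -0.56), and *Plcb4* (-1.32) among unipolar brush cell markers. So were 2 of 7 striatal (*Adora2a* 0.76, *Pde10a* -0.61), 1 of 3 thalamic (*Rora* -1.05), 2 of 7 astrocyte (*Aqp4* -1.02, *Slc1a2* -0.88) and 3 of 6 microglia markers (*Tmem119* 0.66, *C1qa* 0.60, *Csf1r* 0.51), while *Pvalb* and *Sst* were not. Among oligodendrocyte markers *Mobp* (-1.05) and *Cnp* (0.54) were called. Their part in the levels of the sensors was not tested.

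Release genes of cerebellar total RNA were called in both directions, as were genes at large, of which 24.5% were called, 1732 higher and 1812 lower. Of 38 release genes tested 14 were called, with a list median of -0.11 against -0.01 over all genes. Among the 8 that rose were the vesicle genes *Syp* (0.63), *Vamp2* (0.58), *Syn1* (0.56), *Rab3a* (0.54) and *Sv2a* (0.49), the active zone gene *Rims3* (0.79) and the complexin *Cplx1* (0.58). Among the 6 that fell were *Cplx3* (-1.03), the active zone genes *Rims1* (-0.94) and *Rims2* (-0.87), *Snap25* (-0.89), *Napb* (-0.80), which helps to take SNARE complexes apart, and *Erc2* (-0.58). Of 20 related C2 domain genes 5 were called, *Syt14* (-1.14), *Sytl2* (-0.79) and *Myof* (-0.60) lower and *Syt3* (0.42) and *Syt13* (0.37) higher, with a median of -0.03.

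In cerebral total RNA the 4 lines gave *Otof* levels lower in HD mice, close to the threshold. Control libraries held 8.15, 13.3 and 12.8 CPM of *Otof* in the Gad2 line, 12.4, 7.75 and 11.2 in the PV line, 5.66, 10.4, 10.3 and 8.41 in the SST line and 14.6, 10.3 and 11.4 in the vGluT2 line. HD libraries held 4.59, 9.52 and 12.0 CPM in the Gad2 line, 7.24, 8.03 and 5.88 in the PV line, 5.56, 6.25 and 7.48 in the SST line and 5.99, 7.20 and 7.10 in the vGluT2 line. The genotypes overlapped in 3 lines and were apart in the vGluT2 line. By edgeR 0 of 10 sensors were called where 0.645% of genes were, 96 of 14880, with 1046 at an unadjusted p under 0.05, and DESeq2 called 213 genes and 1 sensor, *Otof*. *Otof* differed by -0.53 ± 0.127 (adjusted p = 0.0507 by edgeR, 0.0054 by DESeq2), and was called with library sizes over the genes tested (0.0491) and without Gad2 line control replicate 1 (0.0317), PV line control replicate 2 (0.0367), SST line control replicate 1 (0.0159) or Gad2 line HD replicate 3 (0.0171). *Syt2* (-0.32 ± 0.0884, 0.121) was called without SST line control replicate 1 (0.045), and did not overlap between genotypes in the PV line. The list median was -0.00 over the sensors and 0.02 over all genes. Called markers were lower, 4 of 7 striatal (*Penk* -0.80, *Adora2a* -0.77, *Pde10a* -0.59, *Drd2* -0.52), 1 of 3 thalamic (*Prkcd* -0.50) and 1 of 8 oligodendrocyte (*Cldn11* -0.51), and their part in the level of *Otof* was not tested. No release gene and no related C2 domain gene was called by edgeR.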

How the data were processed

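RNA bound to tagged ribosomes and total RNA were measured in the 106 libraries by paired-end sequencing of stranded mRNA libraries. The authors aligned reads with STAR and quantified them with Salmon (nf-core/rnaseq 3.0), and deposited estimated counts per gene (expected counts) without normalization, of which 8.57% were not whole. Which annotation release they used is not stated. Ensembl identifiers, stripped of versions, were looked up in GENCODE M21 (GRCm38) for type, position and exon length, and 55141 of 55401 were found. Counts were rounded, the 92 spike-ins (at most 4.45% of a library) were left out, and library totals ran from 21905221 to 107753586 (median 35866725).

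Comparisons were made in edgeR 4.0.16 (quasi-likelihood F test, TMM), under R 4.3.3 with limma 3.58.1. Genes tested were protein-coding and averaged over 10 counts across the compared libraries. Benjamini-Hochberg adjusted p-values over all genes tested of 0.05 or less were called, and an SE is the absolute log2 value over the root of F. IPs were compared without covariates and total RNA with the Cre line as a covariate, and differences of effects were tested as interactions. Library sizes were taken over all mouse genes. This was settled after the calls under both this choice and sizes over the genes tested had been seen, and it moves 2 calls: *Syt7* in cerebellar total RNA (adjusted p = 0.0451, and 0.0511 over the genes tested) and *Otof* in cerebral total RNA (0.0507 and 0.0491). CPM of different genes were divided by the length of merged exons.

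Alternatives were DESeq2 1.42.0, its size factors or no TMM, no filter, all gene types, other library sizes, each library left out, replicate or mouse blocks, *Xist* as a covariate, no re-sequenced libraries, mice of 1 ID prefix, single lines, total RNA of the same line, and HD mice in place of controls. The fits were tested on simulated data, where DESeq2 made more false calls than edgeR. Tables and figures were made with Python 3.11.15, pandas 2.3.3, numpy 2.4.6 and matplotlib 3.10.9.

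The sensors and the lists (27 related C2 domain genes, 39 release genes, 12 cell marker lists) were chosen with earlier results of these data known. Named genes are all 10 sensors, most of the listed release and C2 domain genes called in an HD comparison, a selection of called markers, and the 3 genes most like each sensor but *Syt10*.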

Additional observations from a re-analysis of the deposited data

Results flagged for a closer look

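Libraries of a group were compared with each other for each sensor, and 15 of 150 groups of 4 to 10 libraries had a library standing apart from the rest. Chance alone picks out about 1 in 20 groups, and no library was left out for it. The causes were not tested.

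*Syt1* was low in control cerebral Gad2+ IP replicate 6 (879.9 CPM, others 1395 to 1645), in control cerebellar vGluT2+ IP replicate 5 (1059 CPM, others 1331 to 1397) and in HD cerebellar Gad2+ IP replicate 4 (204.7 CPM, others 308.1 to 366.9). *Syt4* was low in control PV+ IP replicate 6 (123.7 CPM, others 171.7 to 194.0) and control cerebral vGluT2+ IP replicate 1 (192.8 CPM, others 318.8 to 389.0). *Syt5* was high in control cerebellar vGluT2+ IP replicate 5 (28.53 CPM, others 6.08 to 11.95) and control cerebral vGluT2+ IP replicate 1 (333.9 CPM, others 224.2 to 260.6).

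*Syt6* was high in control PV+ IP replicate 1 (28.05 CPM, others 16.08 to 20.53), in control total RNA of the vGluT2 line cerebellum, replicate 4 (18.29 CPM, others 9.486 to 10.96), and in HD total RNA of the same line and region, replicate 3 (8.71 CPM, others 7.577 to 7.725). It was low in control SST line total RNA replicate 1 (21.92 CPM, others 26.11 to 26.88) and control cerebral vGluT2+ IP replicate 1 (12.37 CPM, others 18.62 to 21.71). Control cerebral vGluT2+ IP replicate 1 was thus apart in *Syt4*, *Syt5* and *Syt6*, and control cerebellar vGluT2+ IP replicate 5 in *Syt1* and *Syt5*.

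*Syt9* was high in HD total RNA of the vGluT2 line cerebellum, replicate 1 (126.0 CPM, others 83.54 to 88.83), and *Syt10* in control cerebellar vGluT2+ IP replicate 2 (1.399 CPM, others 0.337 to 0.6292), where counts were few. *Doc2b* was high in HD PV+ IP replicate 3 (94.04 CPM, others 20.14 to 27.44), a library also high in Purkinje cell markers.

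The effect of HD on *Otof* differed between cerebellar and cerebral vGluT2+ IPs by 1.45 log2 units, upward in the cerebellum and with lower values in the cerebrum.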

How the results depend on the processing

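Each comparison was fitted again with other tools, filters, scalings and sets of libraries. Of the log2 values of the sensors, 1246 alternatives kept sign and call, 61 lost a call, 28 gained one, 50 changed the sign of a value called in neither fit and 4 changed the sign of a called value. When 1 library was left out, 2261 values kept sign and call, 75 lost a call, 20 gained one and 74 changed the sign of a value called in neither fit, among them *Doc2b* in PV+ IPs, HD against control (0.25, and as low as -0.44). No called value changed sign when 1 library was left out. The causes of these changes were not tested except where the construction of the alternative shows them.

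In cerebellar vGluT2+ IPs, HD against control, 3 sensors and 285 genes were called. DESeq2 called 665 genes and the same 3 sensors, *Xist* as a covariate gave 178 genes, and a replicate block gave 108 genes and 1 sensor. With 1 library left out the counts ran from 1 to 3 sensors and from 149 to 255 genes. In the block fit *Syt7* came to -0.49 (adjusted p = 0.0994) and *Doc2b* to an adjusted p of 0.0729. Replicate numbers do not pair HD with control mice, so this block shares no mouse.

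In cerebellar Gad2+ IPs 2 genes were called, and DESeq2 called 22, no filter on low counts 1, DESeq2 size factors 1, and all gene types, *Xist* as a covariate, a replicate block and the fit without the re-sequenced library 0 each, with 0 to 3 when 1 library was left out. In cerebral Gad2+ IPs 4 genes were called, 75 by DESeq2 and 9 with a replicate block, and 3 to 12 with 1 library left out. In PV+ IPs 5 genes were called, 42 by DESeq2, 1 with *Xist* as a covariate and 0 with a replicate block, and 0 to 4 with 1 library left out. In SST+ IPs 0 genes were called, 2 by DESeq2 and 1 with a replicate block, and 0 to 1 with 1 library left out. In cerebral vGluT2+ IPs 1 gene was called, 25 by DESeq2, and 0 each with no filter, DESeq2 size factors, library sizes over the genes tested, all gene types, *Xist* as a covariate or a replicate block, and 0 to 1 with 1 library left out. No sensor was called by any of these fits.

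In cerebellar total RNA 4 sensors and 3544 genes were called, and DESeq2 called 5 sensors and 4977 genes. A replicate block gave 0 sensors and 9 genes, with *Otof* at an adjusted p of 0.121. The Gad2 line alone gave 0 sensors and 0 genes and the vGluT2 line alone 7565 genes, with 3 control and 3 HD libraries in the former and 4 of each in the latter. With 1 library left out they ran from 1 to 6 sensors and from 96 to 7408 genes.

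In cerebral total RNA 0 sensors and 96 genes were called. DESeq2 called 1 sensor and 213 genes, and 1 sensor was called with DESeq2 size factors, library sizes over the genes tested, all gene types, and a replicate block (151 genes). The Gad2, PV, SST and vGluT2 lines alone gave 0 genes each. With 1 library left out 0 to 2 sensors and 62 to 145 genes were called.

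Control IPs against total RNA depended on how mice were matched. For genes called, IP against total RNA in controls, cerebellar Gad2, and for the sensors, 9 sensors and 8214 genes fell to 5 sensors and 4558 genes with the mouse as a block, and *Syt4* turned from -0.42 to 0.0159 there and to 0.12 in HD mice. For genes called, IP against total RNA in controls, cerebral Gad2, 9 sensors and 9260 genes fell to 4 sensors and 4790 genes with total RNA of the same line, to 3 sensors and 2494 genes with the mouse as a block, and to 5 sensors in HD mice. There *Syt1* turned from 0.63 to -0.0198 and *Syt10* from 0.86 to -0.23. In cerebral vGluT2+ IPs 6 sensors fell to 2 with the mouse as a block. The block and same-line fits use fewer libraries by construction, which the fits in HD mice of the cerebellum and cerebrum do not to the same extent.

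For PV+ against SST+ IPs 6 sensors and 2650 genes were called, 3 sensors in HD mice, and 3 sensors and 813 genes with a replicate block. For the interactions, 15 genes (vGluT2+ minus Gad2+) became 73 by DESeq2 and 13 to 25 with 1 library left out. The 46 genes of the other (cerebellar minus cerebral) became 126 by DESeq2, 30 with the mouse as a block and 32 to 67 with 1 library left out. Length by the longest transcript moved 46 of 120 levels per kb by over 1 SD and changed 23 of 120 ranks. Depth limits sensors with few counts, such as *Syt10* and cerebellar *Syt5*.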
